A study of Mus musculus with 4 samples.

Results

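Mouse Gene 1.0 ST arrays measure each transcript with a set of short oligonucleotide probes, and the deposited table gives 1 log2 signal per probe set. Of its 35556 probe sets, 5534 had a number in the range used for genes but no gene symbol in the platform's annotation, and these unnamed probe sets are described here. They were chosen by annotation and number alone, and no measured value entered the choice. For comparison, 21797 probe sets named 1 gene and 1613 named several genes. A further 6612 unnamed probe sets carried the lower numbers of the array's control block and were not members.

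Gene-level arrays of this kind were designed from predicted as well as curated transcripts, so that a probe set can exist without a named gene. Transcripts without a symbol include predicted genes, small and long non-coding RNAs and copies of repeated genes. Small nucleolar RNAs (snoRNAs) are one such class of small RNA. Most of those with a known role guide the chemical modification of ribosomal RNA, and several imprinted loci carry them in long arrays of near-identical copies that are expressed in brain. Near-identical copies can share probes, so the signals of copies cannot be assigned to single loci. Neither gene names nor sequences were available here for the members, which are given by their probe set number, and the named probe sets on either side in number order are stated as neighbours only. Of consecutive probe sets naming 1 gene, 94.3% lay on the same chromosome in the RefSeq gene table (GRCm38.p6).

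The arrays came from a trimester 3 model of fetal alcohol exposure in C57BL/6J mice. Ethanol pups received 2 injections of 2.5 g/kg ethanol in 0.15 M saline, separated by 2 hours, on each of postnatal days 4 and 7, while control pups received saline alone. The labels give weaning at day 25 and collection of the brain at day 60, whereas the methods give other days. Each array held whole-brain RNA pooled from 3 males of different litters, and there were 2 control arrays (control 1 and control 3) and 2 ethanol arrays (ethanol 2 and ethanol 4). The groups follow the titles and source names. The treatment entry of the labels names the opposite group for control 1 and for ethanol 4, so that every difference below depends on the titles being right. The p-values measure the spread between 2 pools a group.

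The median signal of all probe sets was lower on both ethanol arrays (6.33 and 6.38) than on both control arrays (6.61 and 6.51). The median difference over all probe sets, ethanol minus control, was -0.146 as deposited, -0.00424 after a second quantile normalization of the 4 arrays and 0.0658 after the arrays were centred on their medians. Differences are therefore given both as deposited and after quantile normalization. The neuronal markers had median signals between 12.80 and 12.87 on the 4 arrays and the liver markers between 5.02 and 5.23. The pituitary hormone genes had a median of 5.62 on ethanol 2 and of 9.65 to 9.99 on the other arrays. The part of that difference in the results below was not tested.

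Most unnamed probe sets were dim. Their mean log2 signal over the 4 arrays had a median of 5.77, with quartiles of 5.22 and 7.01, and ran from 4.25 to 14.19. Probe sets naming 1 gene had a median of 6.81. The median of the unnamed probe sets was 5.91 on control 1, 5.83 on control 3, 5.65 on ethanol 2 and 5.73 on ethanol 4, so the arrays of the groups did not overlap in this value. As a reference for genes with little expression in brain, 1248 probe sets of olfactory, vomeronasal and taste receptor genes had a median of 5.34 and a 95th percentile of 6.22. Of the unnamed probe sets, 2117 (38.3%) lay above that percentile, compared with 61.0% of the other probe sets naming 1 gene. The table holds no detection calls, so that a signal below this level cannot be called absent. At the bright end, 403 unnamed probe sets (7.28%) exceeded the median of the ribosomal protein genes (9.89), which encode the proteins of the cytoplasmic ribosome. The unnamed class thus held both dim and bright members.

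**Figure D1:**
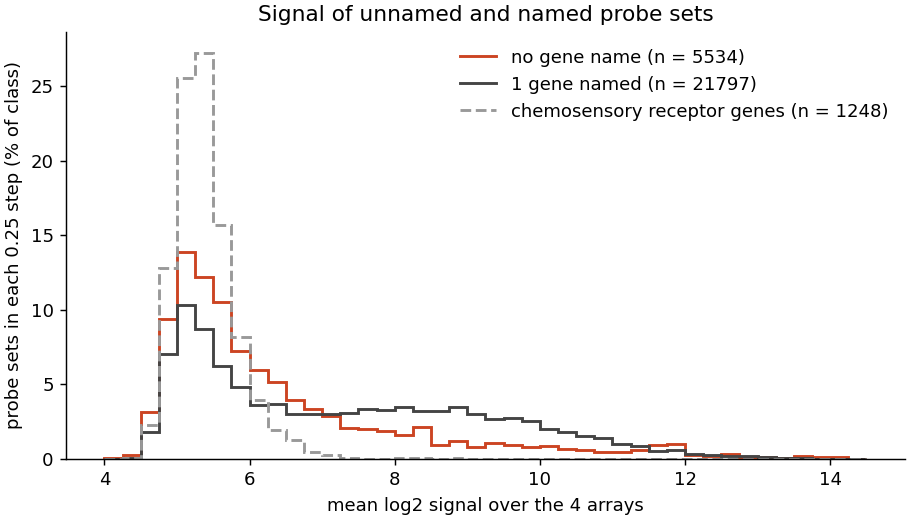
Share of each class of probe sets (y axis, percent) by mean log2 signal over the 4 arrays (x axis, steps of 0.25), for 5534 unnamed probe sets, 21797 naming 1 gene and 1248 of chemosensory receptor genes, which are a subset of those naming 1 gene. The medians are 5.77 for the unnamed probe sets, 5.34 for the receptor genes and 6.81 for those naming 1 gene. The unnamed probe sets have a long bright tail that reaches 14.19.

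The 5 brightest distinct unnamed profiles had means above those of every probe set naming 1 gene, of which the brightest reached 13.86. All but 1 of the 5 lay beside probe sets of the mitochondrial genome, which encodes subunits of the respiratory chain together with its own ribosomal and transfer RNAs. The brightest, 10598025, read 14.40 (log2) and 14.16 in the control pools and 14.26 and 13.95 in the ethanol pools. Probe set 10598036, which precedes the probe set of COX2 (a subunit of cytochrome c oxidase), had 14.35 and 13.99 in the control pools and 14.35 and 13.87 in the ethanol pools. Probe set 10598067 had 14.33 and 13.94 in the control pools and 14.39 and 13.85 in the ethanol pools. In these 3 probe sets the groups overlapped. The same was true of 10598059, which follows the probe sets of ND3 (a subunit of NADH dehydrogenase) and had 14.21 and 13.90 in the control pools against 14.23 and 13.74 in the ethanol pools. The other, 10485357, lay between Api5 and Iftap and varied most, with 14.57 and 13.87 in the control pools and 14.94 and 13.08 in the ethanol pools. Its difference of -0.21 (standard error 0.66) was far inside the spread between arrays of a group.

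Among the 5534 unnamed probe sets there were 5300 distinct profiles, since 313 probe sets (5.66%) shared identical values on all 4 arrays with at least 1 other. They formed 79 families, of which 53 were pairs and 9 had over 5 members. No family joined an unnamed probe set to a named one. The share in such families was 0.592% among probe sets naming 1 gene and 16.2% among those naming several genes, and it was 0 in the control block. In 30 families no named probe set lay between the members, and in 49 the members were scattered among named ones. The identical copies are a single measurement, and counting each profile once changes the counts of calls given below.

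The largest family held 50 probe sets, from 10345436 to 10607429, with 23187 named probe sets between the first and the last. Its log2 signal was 8.19 and 7.97 in the control pools and 8.49 and 8.48 in the ethanol pools. Both ethanol arrays were above both control arrays, by 0.41 (standard error 0.11, limma adjusted p = 0.175) as deposited and by 0.54 after quantile normalization. The second family held 33 probe sets, from 10563937 to 10564155, at 11.88 and 11.73 in the control pools and 12.23 and 11.98 in the ethanol pools. The third held 23, from 10564027 to 10564139, at 11.33 and 11.30 in the control pools and 12.10 and 11.94 in the ethanol pools. In both families the ethanol arrays were the higher ones, by 0.30 (standard error 0.13) and by 0.71 (standard error 0.10, adjusted p = 0.144), and no named probe set lay between their members. The difference of the second family did not pass the limits as deposited (limma adjusted p = 0.248), and after quantile normalization it was 0.31 and passed.

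The next 2 families were dim. That of 13 probe sets, from 10599058 to 10604021, had 5.58 and 5.63 in the control pools and 5.24 and 5.69 in the ethanol pools, which overlapped. That of 7 probe sets, from 10362111 to 10521600, had 5.63 and 5.65 in the control pools and 5.58 and 5.32 in the ethanol pools, a difference of -0.18 (standard error 0.12) that became -0.01 after quantile normalization. Families of 6 were found on both sides. The family at 10563963, which lies within the same stretch as the families of 33 and 23, differed by 0.61 (standard error 0.15). The families at 10563802 and 10582556 differed by -0.45 (standard error 0.08) and -0.50 (standard error 0.11). Their differences after quantile normalization were 0.70, -0.26 and -0.33. Over all 79 families, 12 (15.2%) were higher and 15 (19.0%) lower past the study's limits (1.2-fold with an unadjusted p under 0.05), beside 2.23% and 17.9% of all probe sets. After quantile normalization 16 (20.3%) were higher and 9 (11.4%) lower, beside 5.71% and 5.87%. Of the 12 higher families, all but that at 10345436 lay in the stretch that holds the families of 33 and 23. Of the 16, all but those at 10345436 and 10414781 did.

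**Figure D2:**
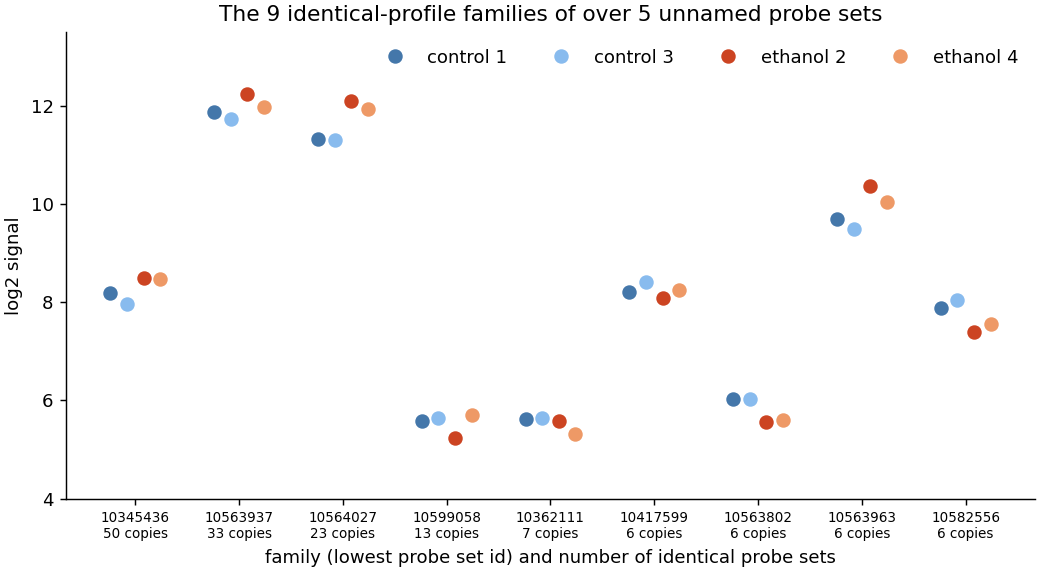
Log2 signal (y axis) on each of the 4 arrays for the 9 families of over 5 identical unnamed probe sets (x axis, lowest number and number of copies), with control arrays in blue and ethanol arrays in red. Both ethanol arrays lie above both control arrays in the families of 50, 33 and 23 and in that at 10563963, and below them in those at 10563802, 10582556 and 10362111.

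The unnamed probe sets as a class were close to those naming 1 gene in their median difference between the groups. In their share of higher calls, given below, they were not. Their median difference, ethanol minus control, was -0.145 as deposited and 0.010 after quantile normalization, compared with -0.139 and 0.000663 for probe sets naming 1 gene. As deposited, 80.9% of the unnamed probe sets had a negative difference, compared with 83.2% of those naming 1 gene, and 47.9% after quantile normalization. In bulk tissue, fewer cells of a type and less RNA per cell cannot be told apart. The typical size of a difference (median 0.173) exceeded the typical gap within the control pair (0.123) and within the ethanol pair (0.120). After quantile normalization it no longer did, with a median size of 0.116 against gaps of 0.111 and 0.115. The gaps between arrays of a group were wider than for probe sets naming 1 gene, for which they were 0.102 and 0.0996 as deposited.

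Past the study's limits, 169 unnamed probe sets were higher and 911 lower on the ethanol arrays. These are shares of 3.05% and 16.5%, beside 2.23% and 17.9% of all probe sets. After quantile normalization 392 were higher and 229 lower, beside 5.71% and 5.87% of all probe sets. After median centring 546 (9.87%) were higher and 152 (2.75%) lower, beside 9.09% and 3.91% of all. In both the deposited and the quantile-normalized form, 169 were higher and 229 lower, beside 2.23% and 5.86% of all. Probe sets naming 1 gene, weighted to the same brightness, gave 0.390% higher and 15.1% lower as deposited, and 3.75% and 2.76% after quantile normalization. With each distinct profile counted once, 80 of 5300 (1.51%) were higher and 884 (16.7%) lower as deposited, and 268 (5.06%) and 212 (4.00%) after quantile normalization. No unnamed probe set passed an adjusted p of 0.05 (limma, Benjamini-Hochberg over the whole table), and 1186 (21.4%) had an unadjusted p under 0.05, beside 22.2% of all probe sets. The smallest adjusted p was 0.0990. After quantile normalization the count at an adjusted p of 0.05 (limma) was again 0, with 734 (13.3%) at an unadjusted p under 0.05, beside 13.6% of all. The methods' ANOVA gave 1 unnamed probe set at an adjusted p of 0.05, 10462699 (7.34 and 7.34 in the control pools, 7.07 and 7.07 in the ethanol pools), whose limma adjusted p was 0.190 and whose difference was -0.27 as deposited and -0.08 after quantile normalization. It was named after its value had been seen.

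At matched brightness the median of the class was close to that of named genes in all intervals but 1. In 9 of the 10 intervals of 1 log2 unit that held both classes, the median difference of the unnamed probe sets was within -0.03 to 0.04 of that of probe sets naming 1 gene, and the weighted mean gap over all 10 was 0.0040. Between 11 and 12, however, 163 unnamed probe sets had a median of 0.24, whereas 643 probe sets naming 1 gene had -0.09. Of these 163, 78 came from a single stretch of consecutive numbers, described next, and had a median of 0.30. The other 85 had a median of -0.14. With each profile counted once the interval's median was -0.08, and in all 10 intervals the medians then lay within -0.04 to 0.02 of those of distinct named profiles. The interval's higher median thus came with the repeated profiles of that stretch. Close medians did not mean equal shares of calls. Between 8 and 9, which holds the family of 50, 60 of 325 unnamed probe sets (18.5%) were higher past the limits, beside 0.723% of those naming 1 gene, and 10 of 265 distinct profiles (3.77%) were. Between 10 and 11 the shares were 12.2% and 1.1%, and 7.81% of distinct profiles. All higher distinct profiles of the interval from 10 to 11 but 10578681 and 10502949 came from the same single stretch. In the interval from 8 to 9 only 10563911, 10563927 and 10564109 did, and the others lay outside it.

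**Figure D3:**
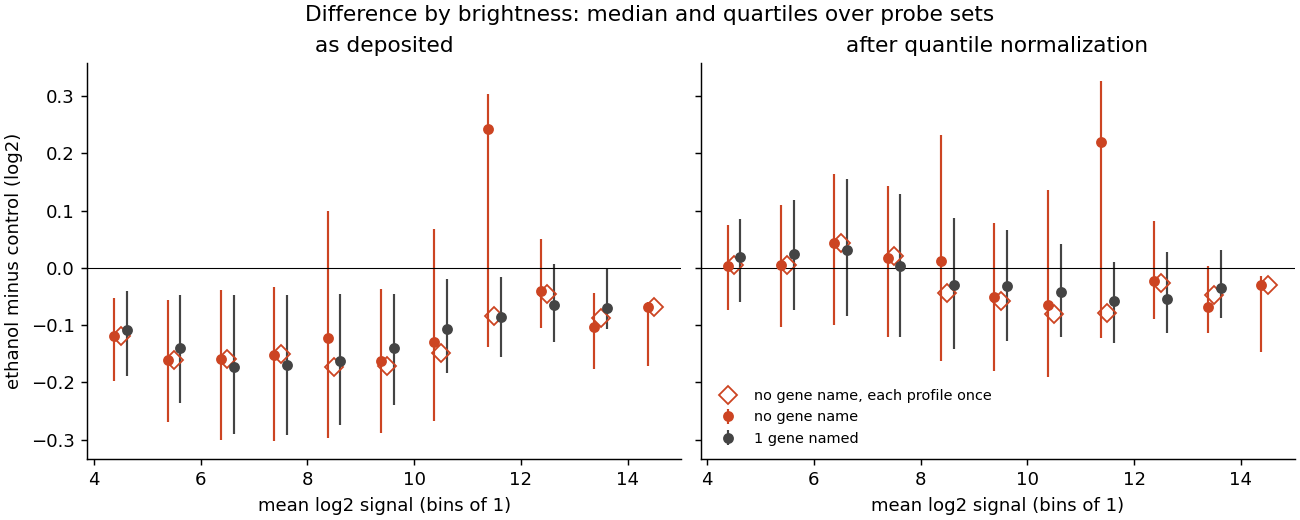
Median difference, ethanol minus control in log2 units (y axis, bars span the quartiles over probe sets), by mean log2 signal in intervals of 1 (x axis), as deposited on the left and after quantile normalization on the right, for unnamed probe sets (red), those naming 1 gene (grey) and distinct unnamed profiles (open diamonds). The classes lie close together except between 11 and 12, where the unnamed median is 0.24 as deposited and the distinct profiles are at -0.08.

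The unnamed numbers fell into 3842 runs without a named probe set between them, of which 2882 were single probe sets. The longest held 134 probe sets, from 10563891 to 10564157, with 55 distinct profiles. It was described after its values had been seen. The probe sets before it name Gabra5, a subunit of the GABA-A receptor, and Depdc1a, and the next one names Snord116l2, Snord116l1 and Gm26504. The last of these belong to the Snord116 snoRNA cluster of the imprinted Prader-Willi and Angelman region. Counted in the RefSeq table from Gabra5, and not from Depdc1a, which is nearer in number order, 155 genes lie before Gm26504 on chromosome 7. Of these, 137 are snoRNAs. None of the unnamed numbers was matched to any of these genes. The run was bright, with distinct profiles between 6.24 and 12.16 and a median of 10.57, and 95 of its probe sets formed 16 families, including those of 33 and 23 members.

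Signals of the run were higher on the ethanol arrays. Its median over distinct profiles was 10.45 on control 1, 10.07 on control 3, 11.03 on ethanol 2 and 10.80 on ethanol 4. Over the 55 profiles the median difference was 0.47 as deposited and 0.51 after quantile normalization. Distinct profiles need not be independent measurements, as some are nearly the same. For example, 10564135 and 10564143 read 11.1799 and 11.1782 on control 1 and 11.6238 and 11.6236 on ethanol 2. Whether such profiles share probes was not tested. Of the 55 profiles, 52 had a difference above 0 in both forms. Among all probe sets, 80.2% had a difference below 0 as deposited and 51.0% after quantile normalization. Both ethanol arrays were above both control arrays in 48 profiles (87.3%), beside 7.25% of all probe sets. In 40 the difference was larger than either gap between arrays of a group, a count not taken over all probe sets. Over all probe sets the median size of a difference was 0.174, itself larger than the median gaps of 0.122 (control) and 0.119 (ethanol). Past the limits, 32 profiles (58.2%) were higher, by 0.30 to 1.78, and 1 (1.82%) was lower, beside 2.23% and 17.9% of all probe sets. All 32 were also past them after quantile normalization, when 43 (78.2%) were higher and 0 lower, beside 5.71% and 5.87%. Adjusted p-values (limma) ran from 0.133 to 0.774. The ethanol arrays were not alike, as ethanol 2 was above ethanol 4 in 52 profiles. Without ethanol 2 the median difference was 0.26 and 16 profiles were higher past the limits, and without control 3 the count was 17. Grouped by the treatment entry, 0 profiles passed, 51 of 55 were above 0 and the median difference was 0.20.

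The difference was largest in 10563911, which had 7.52 and 7.29 in the control pools and 9.57 and 8.81 in the ethanol pools, a difference of 1.78 (standard error 0.27, adjusted p = 0.156) or 3.44-fold. Probe set 10564057 had 10.46 and 10.13 in the control pools against 12.06 and 11.40 in the ethanol pools, and 10563927 had 7.58 and 7.72 against 8.64 and 9.45. The last of these is one of the few profiles with the higher signal on ethanol 4. Probe set 10563993, a family of 3, was close within each group, with 10.22 and 10.07 in the control pools and 11.12 and 11.11 in the ethanol pools, and had the smallest adjusted p of the run (0.133). The 3 profiles with a difference below 0 were 10563891 at -0.38 (adjusted p = 0.171), 10563893 at -0.45 and 10563901 at -0.25, all among the first 6 of the run. They were named after their values had been seen, as were 10564057, 10563927 and 10563993. The family of 33 (10563937) was at 0.30 and that of 23 (10564027) at 0.71.

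In the bright named neighbours the groups overlapped. Gabra5 had 11.28 and 11.30 in the control pools and 11.33 and 11.24 in the ethanol pools, a difference of -0.01 (standard error 0.09, adjusted p = 0.943). The 24 probe sets of the Snord116 cluster gave 7 distinct profiles whose differences lay between -0.09 and 0.06 (between -0.08 and 0.08 once quantile normalized), and 0 were past the limits (adjusted p from 0.775 to 0.992). The probe set with the most copies there, 10564163, had 12.83 and 12.87 in the control pools and 13.14 and 12.52 in the ethanol pools. In these bright neighbours ethanol 2 was again the higher ethanol array, but the groups overlapped. Depdc1a, which is dim, had 5.38 and 5.44 in the control pools and 5.10 and 5.27 in the ethanol pools. Its groups were apart in the opposite direction to the run, by -0.22 (standard error 0.10, adjusted p = 0.270) as deposited and by -0.06 after quantile normalization. Gkap1, the next probe set naming 1 gene after the run, had 7.18 and 7.34 in the control pools and 7.00 and 7.11 in the ethanol pools. The difference of Gkap1 was -0.20 (standard error 0.10) as deposited and -0.01 after quantile normalization. Over all probe sets the median was -0.146 as deposited.

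**Figure D4:**
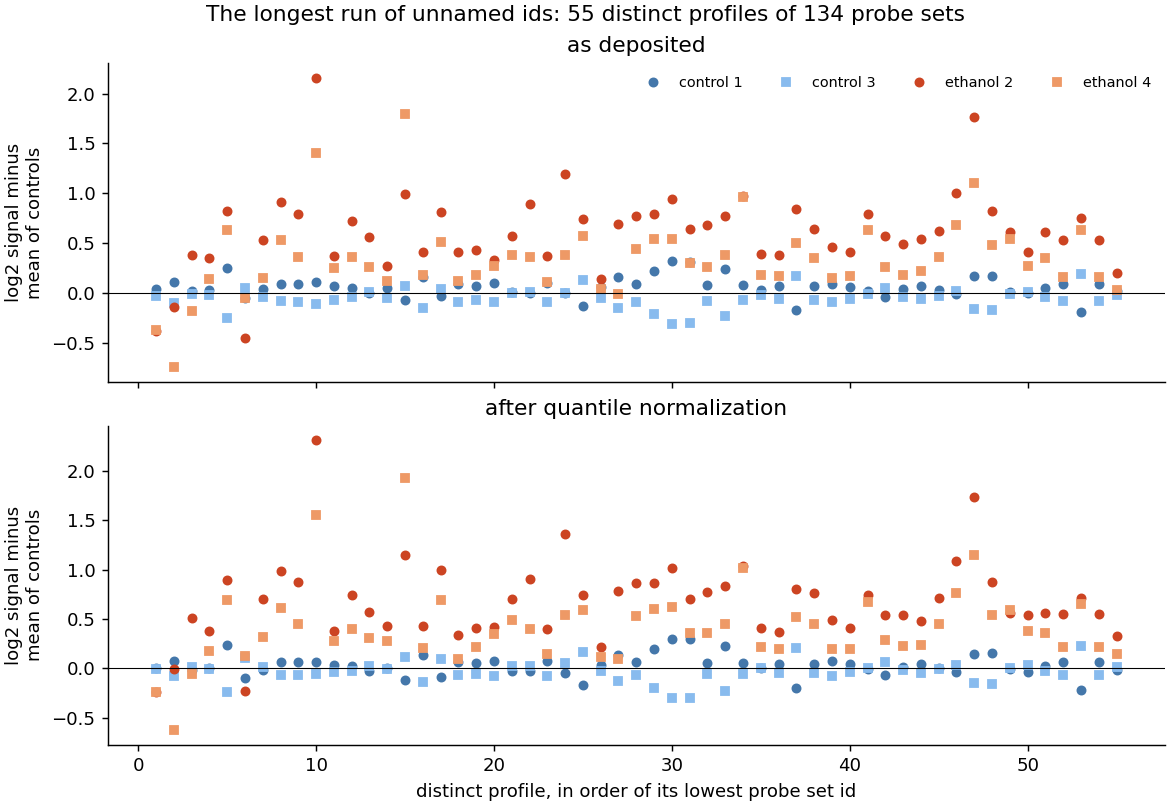
Log2 signal minus the mean of the 2 control arrays (y axis) for the 55 distinct profiles of the longest run in number order (x axis), as deposited above and after quantile normalization below. Both ethanol arrays (red) lie above both control arrays (blue) in 48 profiles as deposited (7.25% of all probe sets) and in 50 after quantile normalization (24.0% of all), with ethanol 2 mostly the higher of the pair.

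Of 5245 distinct unnamed profiles outside this run, 48 (0.915%) were higher and 883 (16.8%) lower past the limits as deposited, and 225 (4.29%) and 212 (4.04%) after quantile normalization. The second-longest run, 91 probe sets from 10608634 at the end of the table behind a probe set that names the Y-linked gene Ssty2 among others, had a median difference of -0.12, with 0 higher and 14 lower, beside 17.9% lower of all probe sets. After quantile normalization the median was 0.02, with 1 higher and 4 lower, beside 5.71% and 5.87% of all probe sets. Its means ran from 4.56 to 13.84. The third, 22 probe sets between Ptprf and Cdc20, had a median of -0.16 with 0 higher and 3 lower, beside 2.23% and 17.9% of all. Its sign turned after quantile normalization, to a median of 0.03 with 2 higher and 1 lower, beside 5.71% and 5.87%. In a run of 10 between Slc46a2 and Mup5, a gene of the major urinary protein cluster, all differences lay between -0.41 and -0.28. Past the limits 9 were lower, beside 17.9% of all probe sets, whereas the runs of 14, 13 and 12 had 2 lower each. The run of 10 was picked after values had been seen. Its signals were dim (means 5.28 to 5.92). After quantile normalization 0 of the 10 were past the limits, beside 5.71% and 5.87% of all, with a median of -0.18.

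Beside the mitochondrial genes, 28 unnamed probe sets were found in runs next to a probe set that names a gene of the mitochondrial genome. This set too was formed after values had been seen. Of these 28, 0 were higher and 9 lower past the limits, beside 2.23% and 17.9% of all probe sets. After quantile normalization the same 9 were lower, beside 5.87% of all. By the methods' ANOVA 3 were lower, beside 8.11% of all. Grouped by the treatment entry 5 were higher and 1 lower, beside 0.917% and 0.686% of all. The 9 differed by -1.65 to -0.71 and had means from 7.44 to 12.31. Those with a mean above 13, also 9 in number, differed by only -0.26 to -0.02, and 0 passed. The remaining 19 had a median of -0.58. The 4 probe sets that name COX2 or ND3 alone differed by -0.13 to 0.08, and 0 passed. The calls in this stretch thus had means of 12.31 or less, and the members above 13 gave 0, a cut set after values had been seen. Members of like brightness were also not called, such as 10598057 (12.09) and 10598075 (12.03). The 4 named probe sets had means from 12.40 to 13.86, so that named and bright are not separate comparisons here.

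The largest of these decreases was in 10598071, with 11.44 and 11.28 in the control pools and 9.12 and 10.30 in the ethanol pools. The difference was -1.65 (standard error 0.40, adjusted p = 0.173), or 3.15-fold, and -1.06 without ethanol 2. The ethanol arrays differed from each other by more than the control arrays did. Probe set 10598079 had 8.33 and 8.05 in the control pools and 6.62 and 6.75 in the ethanol pools, a difference of -1.51 (adjusted p = 0.120). Probe set 10598064 had 11.30 and 10.84 against 9.48 and 10.24. By contrast, 10598057 was the one with the highest difference (0.19) and overlapped, with 12.26 and 11.72 in the control pools and 12.41 and 11.95 in the ethanol pools. Probe sets 10598079, 10598064 and 10598057 were named after their values had been seen.

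**Figure D5:**
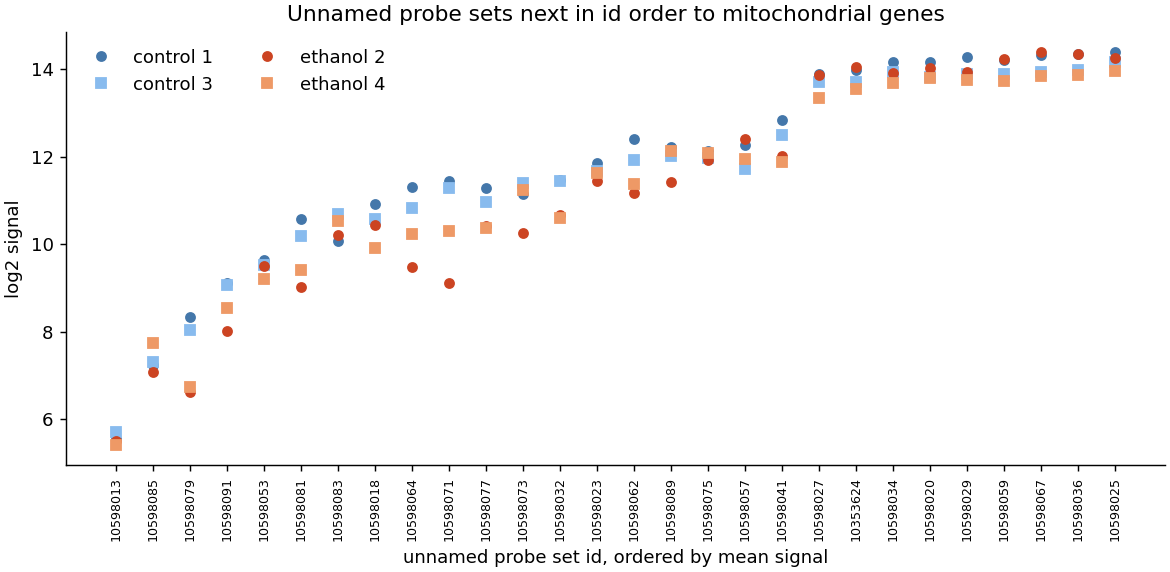
Log2 signal (y axis) on each of the 4 arrays for the 28 unnamed probe sets next in number order to mitochondrial genes (x axis, ordered by mean signal), with control arrays in blue and ethanol arrays in red. Both ethanol arrays lie below both control arrays in 14 of the 28, beside 52.7% of all probe sets. After quantile normalization they do in 13, beside 24.9%. The 9 that pass the limits have means from 7.44 to 12.31, and the groups lie closer together above 13.

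Single unnamed probe sets with large differences were also found elsewhere. Among 2236 distinct profiles with a mean of 6 or more, 68 (3.04%) were higher and 136 (6.08%) lower past the limits with the groups apart in both forms of the data, beside 2.76% and 7.10% of all distinct profiles of that brightness. Of the 68, 32 came from the longest run, and of the 136, 9 came from beside the mitochondrial genes. The highest was 10346114, with 5.77 and 5.99 in the control pools and 7.71 and 7.93 in the ethanol pools. Its difference of 1.94 (standard error 0.13), or 3.83-fold, had the smallest adjusted p of all unnamed probe sets (0.0990), and it was 2.10 after quantile normalization. It lay between probe sets of Dnah7b and Dnah7c, which encode heavy chains of axonemal dynein, the motor of cilia. Dnah7b had 5.87 and 5.67 in the control pools and 6.32 and 6.15 in the ethanol pools, a difference of 0.47 (standard error 0.12, adjusted p = 0.174), and Dnah7c had a difference of 0.00. The second lowest, after 10598071, was 10598794, between Gm5755 and Dusp21, with 7.56 and 7.64 in the control pools and 6.75 and 5.25 in the ethanol pools. Its difference of -1.60 (standard error 0.50, adjusted p = 0.194) came with a gap between the ethanol arrays of nearly the same size as the difference, and without ethanol 4 the difference was -0.86.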

How the data were processed

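Whole-brain RNA from 4 pools was hybridized to Mouse Gene 1.0 ST arrays. The authors summarized probes with RMA, adjusted for GC content and quantile normalized, in Partek Genomics Suite (version 6.6 in the submitters' notes), and deposited log2 values. Members and lists were chosen with earlier results of these data known.

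Each of the 35556 probe sets was tested in R (4.3.3) by limma (version 3.58.1), control against ethanol by title, with 2 residual and 2.57 prior degrees of freedom, two-sided, and p-values were adjusted by Benjamini-Hochberg over the table. A call needs 1.2-fold and an unadjusted p under 0.05, without any filter on low signal. The study's gene-level ANOVA was run as an alternative. Families share identical deposited values on all 4 arrays. The number of arrays limits the precision. Named probe sets are the 2 highest and 2 lowest differences (distinct profiles, mean of 6 or more, past the limits and apart in both forms), the 5 brightest, the 5 largest families and the smallest adjusted p, besides those said to be chosen later. The code was tested on simulated data. Pairs of pools are not given by the labels, so each of the 2 pairings that could hold was used as a replicate block.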

Additional observations from a re-analysis of the deposited data

How the results depend on the processing

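The calls depended on the scaling and on the grouping. Higher and lower unnamed probe sets, 169 and 911 as deposited, were 392 and 229 after quantile normalization, 546 and 152 after median centring, 29 and 16 grouped by the treatment entry, 65 and 68 by that entry after quantile normalization (added after the data were seen), 48 and 377 by the methods' ANOVA, 66 and 118 at 1.5-fold, and 0 and 0 at a limma adjusted p of 0.05 (1 by the methods' ANOVA). Over all probe sets the shares, 2.23% and 17.9% as deposited, were 9.09% and 3.91% after centring, beside 9.87% and 2.75% of the unnamed. By the treatment entry they were 0.917% and 0.686%, beside 0.524% and 0.289%. After quantile normalization that entry gave 1.41% and 1.36%, beside 1.17% and 1.23%. By the methods' ANOVA they were 0.765% and 8.11%, beside 0.867% and 6.81%. At 1.5-fold, 405 and 1289 of all 35556 probe sets passed. The higher count of the unnamed was 80 with each profile counted once and 97 without the longest run (added later). With 1 array left out, the higher count ran from 103 (without control 3) to 177 and the lower from 428 (without control 1) to 940, with 438 without ethanol 2. With a lone array in a group, that array is assumed to vary like the other group. The median difference of the unnamed then ran from -0.180 (without control 3) to -0.108 (without control 1), beside -0.176 and -0.113 of all probe sets. The median difference was 0.010 after quantile normalization, 0.0669 after centring and 0.0118 by the treatment entry, and the share below 0 was 47.9%, 35.6% and 45.9%. The cause was not tested.

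In the longest run (settings added later), 32 higher and 1 lower became 50 and 0 after centring, 43 and 0 after quantile normalization, 0 and 0 by the treatment entry, 0 and 1 by that entry after quantile normalization and 7 and 1 by ANOVA. With 1 array left out, 16 (without ethanol 2) to 42 were higher, with 17 without control 3, and 1 to 2 lower, with 2 without ethanol 2 and 2 without ethanol 4. With control 1 paired to ethanol 2, the replicate block gave 216 (3.90%) higher and 859 (15.5%) lower unnamed probe sets, beside 2.75% and 17.0% of all. With control 1 paired to ethanol 4 it gave 162 (2.93%) and 817 (14.8%), beside 2.34% and 16.7%. In the run the 2 pairings gave 40 higher and 2 lower, and 27 and 1. Beside the mitochondrial genes (settings added later), 0 higher and 9 lower became 0 and 3 by ANOVA, 5 and 1 by the treatment entry, and 1 and 12 without ethanol 2. Grouped by the treatment entry, the sign turned in 10346114 (-0.22), 10598794 (0.71), 10598036 (0.42), 10598067 (0.47), 10485357 (1.28) and 10598059 (0.40). The brightness-matched gap kept within -0.0091 to 0.0149 in every alternative run. The median signal, the counts above the receptor genes and of distinct profiles and the spread within groups moved less than the limits set for them. The number of arrays, 2 a group, limits the precision.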
